A study of Mus musculus with 6 samples.

Results

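The genes described here are 45 genes of the cell division cycle: cyclins, cyclin-dependent kinases and their inhibitors, replication factors, mitotic kinases, centromere proteins, and microtubule and cytokinesis proteins. They were chosen by name, and 44 of the 45 had at least 1 probe set with exactly 1 gene symbol in the platform table, of 18193 genes measured in all. Ccnb1 (cyclin B1) had none and was not analysed here. Messenger RNA was measured in the apex of the heart ventricles of mice that carry a human progesterone receptor directed to the mitochondrion (PR-M), on Affymetrix Mouse Genome 430 2.0 arrays. Of the 6 samples, 3 were PR-M expressing and the other 3 PR-M non-expressing, and both groups came from animals given 2.5 mg progesterone in oil under the skin for 19 to 21 days. Strain, sex, age, the promoter of the transgene and the way expression was established are not stated in the labels. Nothing says that the samples of a group were separate animals, so each p-value measures the spread between these samples, which may be technical.

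Cell division is driven by kinases that are active only while bound to a cyclin. D cyclins with Cdk4 and Cdk6 phosphorylate the retinoblastoma protein Rb1 early in the cycle, which frees E2F factors to switch on genes of DNA replication. Later, Cdk1 with cyclins A and B takes the cell into mitosis, and many mitotic genes are held silent in resting cells by repressors bound at their promoters. Most cardiomyocytes of the adult mouse have left the cycle, so dividing cells in the adult ventricle are few and largely of other types. Because the tissue was measured in bulk, fewer cells of a type and less RNA per cell cannot be told apart.

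Promoter sequences are shown first for the members with the largest differences between the groups, Cenpb, Fign, Cenpf and Mcm6, and for Cdk1 as a textbook cell cycle promoter for comparison. Each run is the 150 bases before the start that set the promoter window of the gene (RefSeq, GRCm38.p6), 5′ to 3′ on its strand. For Cenpb, Fign, Mcm6 and Cdk1 that is the annotated start of the gene, at offset 250 of the window. For Cenpf the annotated start lies at offset 229, so the last bases of its run follow that start. Capitals mark matches on either strand to a CCAAT box (CCAAT), to a cell cycle homology region, the element read by the repressors of mitotic genes (TTTGAA), and to an E2F site (TTTCCCGC, TTTCGCGC, TTTGCCGC or TTTGGCGC).
Cenpb, chr2:131180068-131180217, minus strand: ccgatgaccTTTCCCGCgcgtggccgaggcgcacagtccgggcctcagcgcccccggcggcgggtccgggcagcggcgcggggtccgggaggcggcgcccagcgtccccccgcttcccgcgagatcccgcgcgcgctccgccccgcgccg
Fign, chr2:64098039-64098188, minus strand: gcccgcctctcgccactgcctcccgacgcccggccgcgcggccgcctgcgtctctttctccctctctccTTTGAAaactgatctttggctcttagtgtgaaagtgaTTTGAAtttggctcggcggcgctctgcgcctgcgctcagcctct
Cenpf, chr1:189688087-189688236, minus strand: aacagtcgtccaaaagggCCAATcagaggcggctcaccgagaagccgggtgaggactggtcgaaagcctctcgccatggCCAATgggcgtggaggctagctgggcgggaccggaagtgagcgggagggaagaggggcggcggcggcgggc
Mcm6, chr1:128359706-128359855, minus strand: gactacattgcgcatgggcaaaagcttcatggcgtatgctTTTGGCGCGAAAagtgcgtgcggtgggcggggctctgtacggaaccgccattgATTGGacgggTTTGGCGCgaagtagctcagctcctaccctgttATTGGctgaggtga
Cdk1, chr10:69352913-69353062, minus strand: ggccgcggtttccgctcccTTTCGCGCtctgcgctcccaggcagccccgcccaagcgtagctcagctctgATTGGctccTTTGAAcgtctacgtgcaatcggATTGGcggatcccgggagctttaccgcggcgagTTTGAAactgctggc
The Cenpb stretch held 1 E2F match and neither other motif. Fign had 2 matches to TTTGAA and no other, while Cenpf had 2 CCAAT boxes and Mcm6 had 2 CCAAT boxes and 3 E2F matches, of which 2 overlap each other. In the Cdk1 stretch all 3 motifs were found. Over the windows of 300 bases in the promoter table, from 250 before to 50 after a start, 36 of the 45 genes had an entry, with 41 windows between them. Aurkb, Ccna2, Ccnd1, Ccnd2, Ccne2, Cdkn1c, Kif20a, Mcm4 and Rb1 had none. A CCAAT box was found in 29 of the 41 windows (70.7%), against 37.4% of all 32851 windows. TTTGAA was found in 16 (39.0%) against 17.9%, and an E2F match in 7 (17.1%) against 2.26%. These shares describe letters in the windows and say nothing of binding.

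Most cell cycle genes had similar levels in the 2 groups, and 2 of the 44 passed the test, both higher in the PR-M expressing group. They were Cenpb, whose protein binds a short DNA box in centromeric repeats, and Fign, whose protein fidgetin is an ATPase that severs microtubules. Over all genes the same test called 12 of 18193, or 0.0660%, and 0.0330% in the direction of higher. The gene list was drawn up with these 2 calls known, so its count is not independent evidence about cell cycle genes. The calls also rest on 1 choice that was made after its outcome was known. With the variance prior of limma estimated over the 18193 gene rows, as the fit was first run, 4 genes and no member passed (7 members at an unadjusted p under 0.05), and Cenpb and Fign each had an adjusted p of 0.0668. The fit given here estimates the prior over all 45037 probe sets and was taken up after both outcomes had been seen. The planned design did not say which rows set the prior, so Cenpb and Fign lie at the edge of the threshold and are not firm calls. The values are log2 expression, the test was limma, differences are expressing minus non-expressing, and the adjusted p (Benjamini-Hochberg) had to lie under 0.05. At an unadjusted p under 0.05 there were 6 higher and 1 lower among the 44, against 4.85% and 6.56% of all genes (11.4% in either direction). The groups did not overlap in 7 higher and 2 lower members, against 8.16% and 10.8% of all genes (19.0% in either direction). The median difference over the members was 0.05, and over all genes -0.02. For genes at or above the median level of all probe sets it was 0.05 over 33 members and -0.0039 over 11963 genes.

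**Figure D1:**
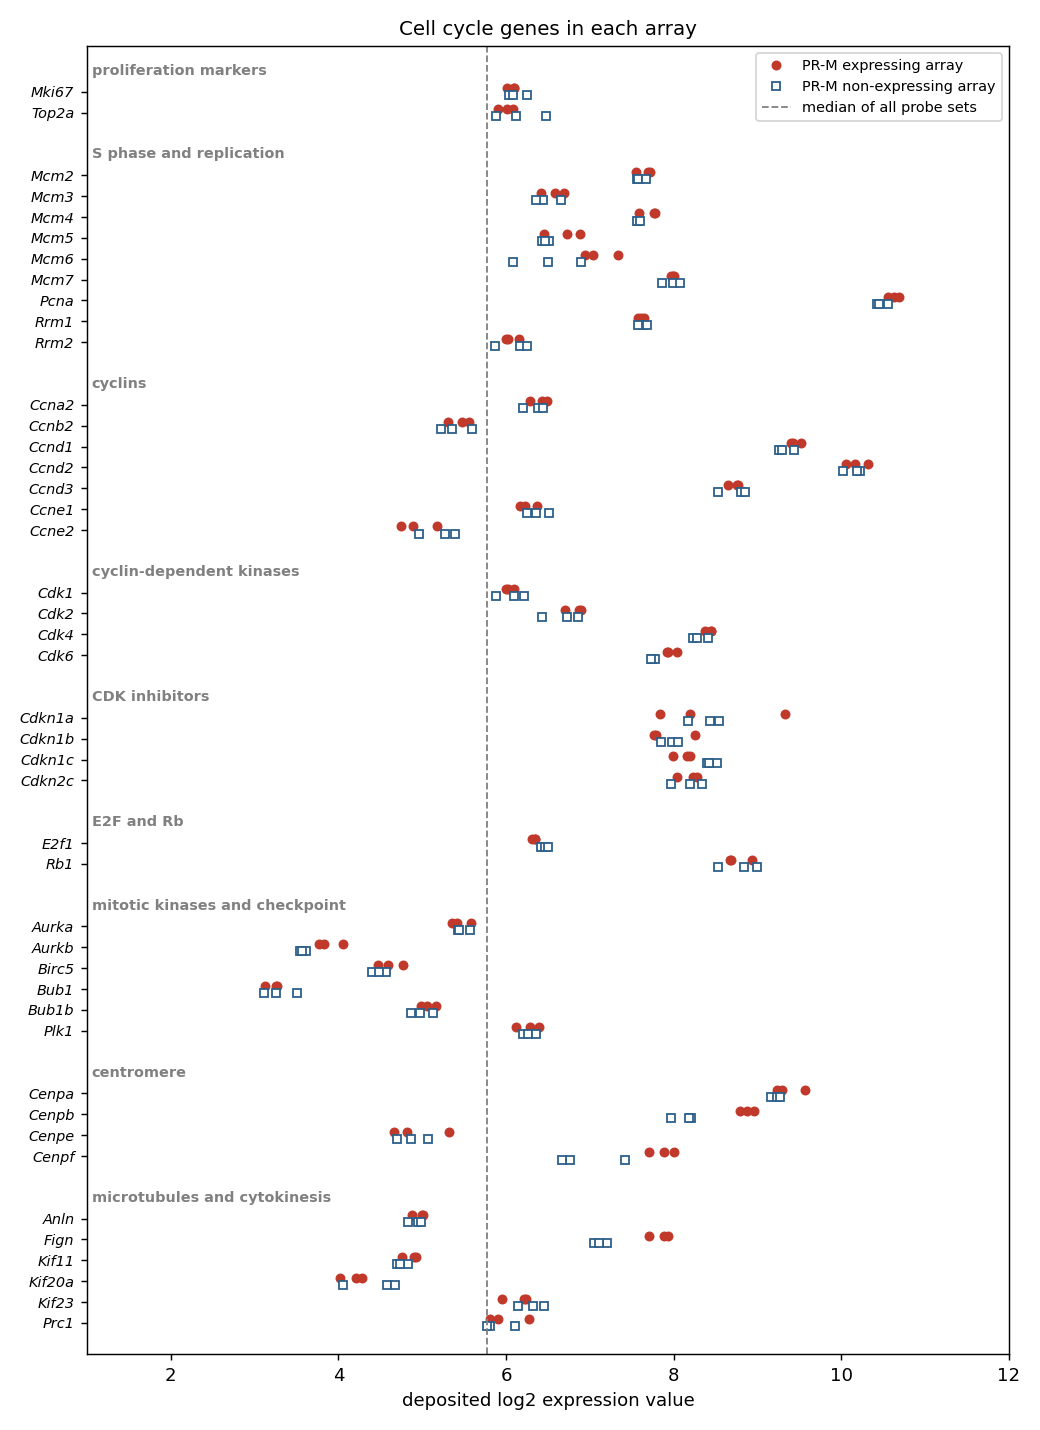
Deposited log2 value (x axis) of the probe set that stands for each of the 44 genes (y axis, by role), with filled circles for the 3 PR-M expressing arrays and open squares for the 3 non-expressing arrays. The dashed line is the median of all probe sets, 5.77. Cenpb, Fign and Cenpf stand out with their groups apart, while most genes have both groups on top of each other.

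The intervals of the differences bound how large a change these arrays leave room for. For 37 of the 44 genes the 95% interval lay within a 1.5-fold change in either direction, and for 42 within a 2-fold change. These are 84.1% and 95.5% of the members, below the 93.5% and 99.0% of all genes. The exceptions to the latter were Cenpf and Mcm6. Of the 44, 11 lay below the median of all probe sets (5.77 on the log2 scale), where a probe set may read little but background: Ccnb2, Ccne2, Bub1, Bub1b, Aurka, Aurkb, Birc5, Cenpe, Kif11, Kif20a and Anln. These 11 are mostly mitotic genes, and a narrow interval there says little about the transcript.

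**Figure D2:**
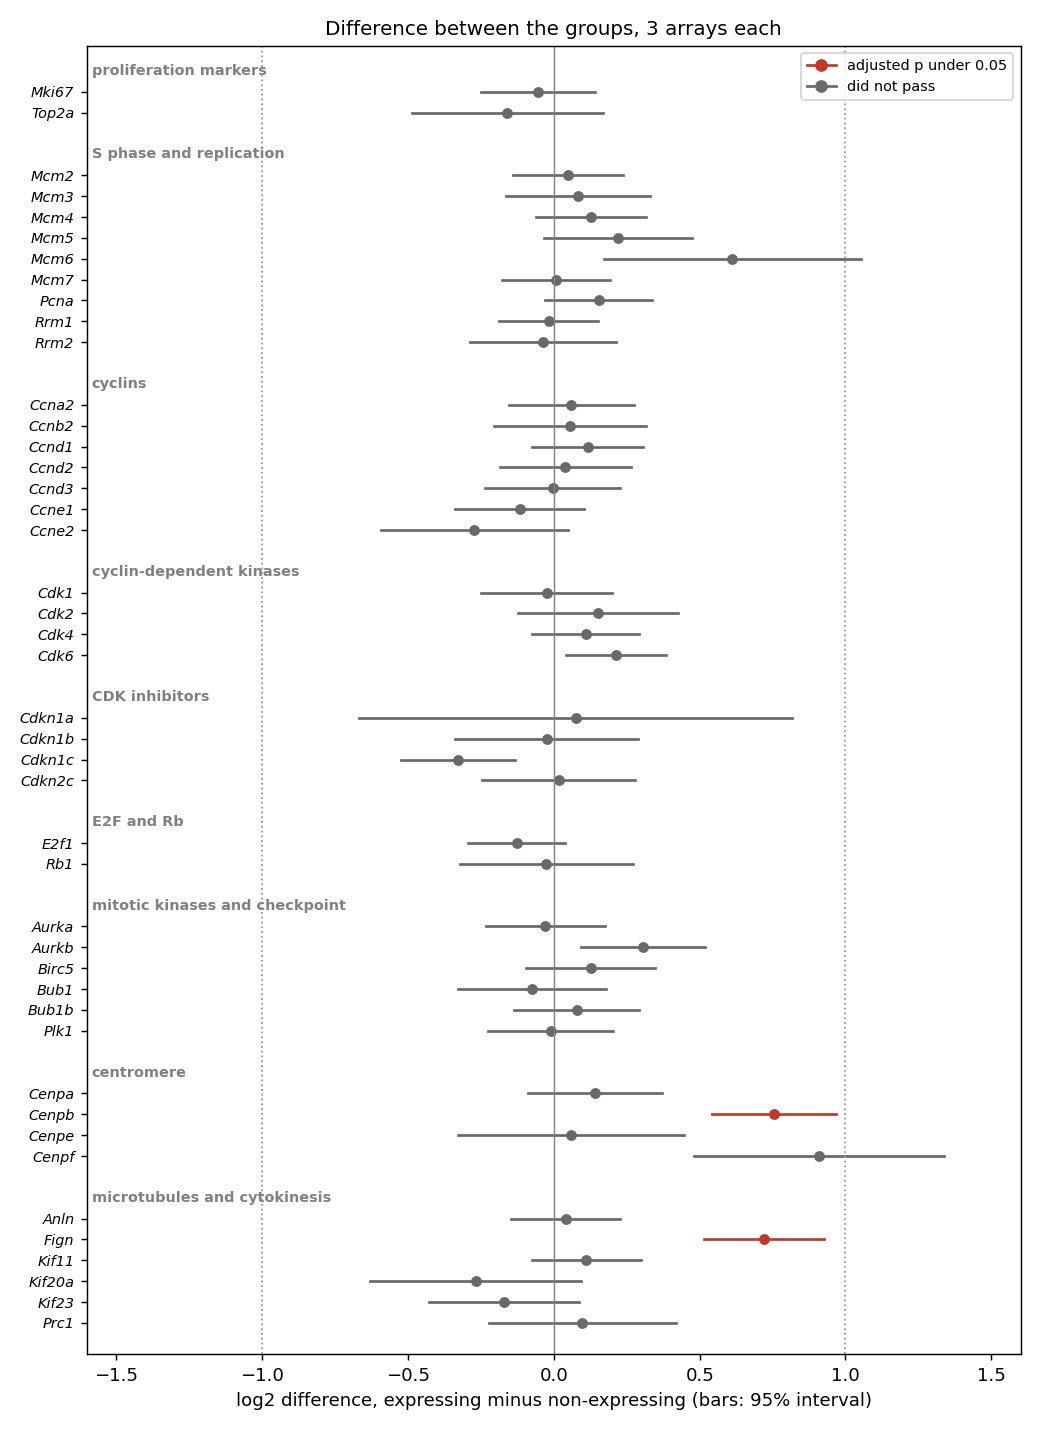
Log2 difference, expressing minus non-expressing (x axis), of the 44 genes (y axis, by role), as points with 95% intervals from limma, 3 arrays in each group. Dotted lines mark a 2-fold change. The 2 genes in red, Cenpb at 0.75 and Fign at 0.72, passed the threshold, and Cenpf at 0.91 and Mcm6 at 0.61 have wider intervals and did not pass.

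Among the centromere genes, Cenpb was higher in the expressing group and passed in the fit given here. Its probe set 1426051_a_at was at 8.95, 8.88 and 8.79 in the expressing arrays and at 7.96, 8.21 and 8.19 in the non-expressing ones. The groups did not overlap, and the gap between them was wider than the spread within either. The difference was 0.75 (SE 0.09, 95% interval 0.54 to 0.97), a 1.69-fold higher level, with a limma adjusted p of 0.0453. The other Cenpb probe set, 1435944_s_at, ran the other way. It was dim and overlapped, at 3.62, 3.49 and 3.75 against 3.96, 4.14 and 3.75. The difference was -0.33 (95% interval -0.60 to -0.06, limma adjusted p 0.327 over all probe sets). The name of that probe set ends in _s_at, the mark for probes shared by several transcripts. Those that stand for Mcm2, Mcm7 and Prc1 end in it too. The direction given for Cenpb thus rests on 1 probe set.

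Cenpf, whose large protein joins the kinetochore (the structure that ties a chromosome to the spindle) and also binds microtubules, had the largest difference of the members and did not pass. It was at 7.70, 7.88 and 8.00 in the expressing arrays and at 6.76, 6.66 and 7.42 in the non-expressing arrays. The groups were apart, but non-expressing replicate 3 lay nearer to the expressing arrays than to its own group. The difference was 0.91 (SE 0.19, 95% interval 0.48 to 1.34, adjusted p 0.182). Without non-expressing replicate 3 it was 1.15 with an adjusted p of 0.0427, and leaving out any other array kept it between 0.77 and 0.99 without a call. A second probe set, 1452334_at, was at 5.92, 6.13 and 6.0 against 5.38, 5.57 and 5.79, again without overlap (difference 0.43, adjusted p 0.231 over all probe sets). Probe set 1458447_at was dim and differed by 0.03.

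The remaining centromere members did not pass. Cenpa, the histone H3 variant that marks the centromere, was at 9.56, 9.23 and 9.30 against 9.17, 9.24 and 9.27 (difference 0.14, 95% interval -0.09 to 0.37, adjusted p 0.619). Its high value in expressing replicate 1 made most of that difference. Its other 2 probe sets ran the opposite way: 1444416_at differed by -0.19 with overlap, and the dim 1441864_x_at was at 3.48, 3.80 and 3.71 against 3.94, 4.09 and 3.82, without overlap (difference -0.28, adjusted p 0.357 over all probe sets). Cenpe, the kinesin that moves chromosomes to the spindle equator, was dim and differed by 0.06 (95% interval -0.33 to 0.45).

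Fign was higher by a similar amount and passed in the same fit, and here a second probe set differed in the same direction. Probe set 1442873_at was at 7.93, 7.88 and 7.71 in the expressing arrays and 7.05, 7.20 and 7.10 in the non-expressing arrays. Every expressing array was above every non-expressing one, by more than the range within either group. The difference was 0.72 (SE 0.09, 95% interval 0.52 to 0.93), a 1.65-fold higher level, with a limma adjusted p of 0.0453. Probe set 1450268_at was at 7.73, 7.63 and 7.60 against 7.25, 6.91 and 6.96, also without overlap (difference 0.61, SE 0.10, adjusted p 0.121 over all probe sets). The remaining Fign probe set, 1439602_at, was dim, overlapped and differed by -0.10.

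**Figure D3:**
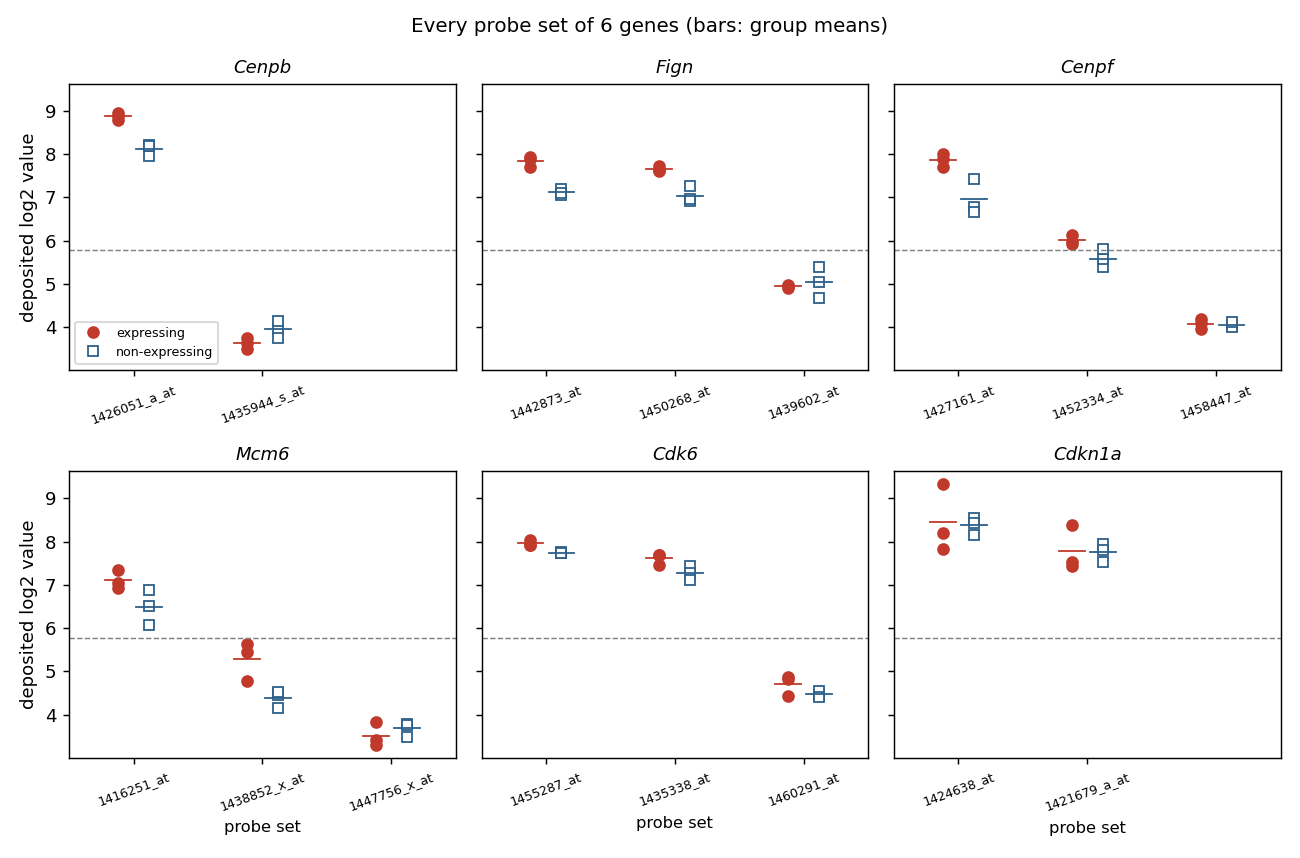
Deposited log2 values (y axis) of every probe set (x axis, brightest at the left) of Cenpb, Fign, Cenpf, Mcm6, Cdk6 and Cdkn1a, with filled circles for expressing and open squares for non-expressing arrays and short bars for group means. The dashed line is the median of all probe sets. In Fign, Cenpf, Mcm6 and Cdk6 the 2 brightest probe sets are higher in the expressing arrays without overlap, in Cenpb only the brightest, and in both Cdkn1a probe sets expressing replicate 3 lies far above the other arrays.

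Besides the prior over the genes alone, other settings ended both calls. They were lost when every probe set was tested on its own (adjusted p 0.0639 for each) and when a random block stood for the title prefix (0.0987 for Cenpb and 0.0990 for Fign). They were also lost with ordinary statistics (0.250 for each), when _x_at and _s_at probe sets were dropped (0.0506 for each), and when the probe sets of each gene were averaged. That average differed by 0.21 for Cenpb (adjusted p 0.350) and 0.41 for Fign (0.219). Each of the 6 arrays, left out in turn, ended both calls, with an adjusted p from 0.0513 to 0.185 for Cenpb and from 0.0743 to 0.198 for Fign. The differences then stayed between 0.68 and 0.80 for Cenpb and between 0.67 and 0.79 for Fign.

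**Figure D4:**
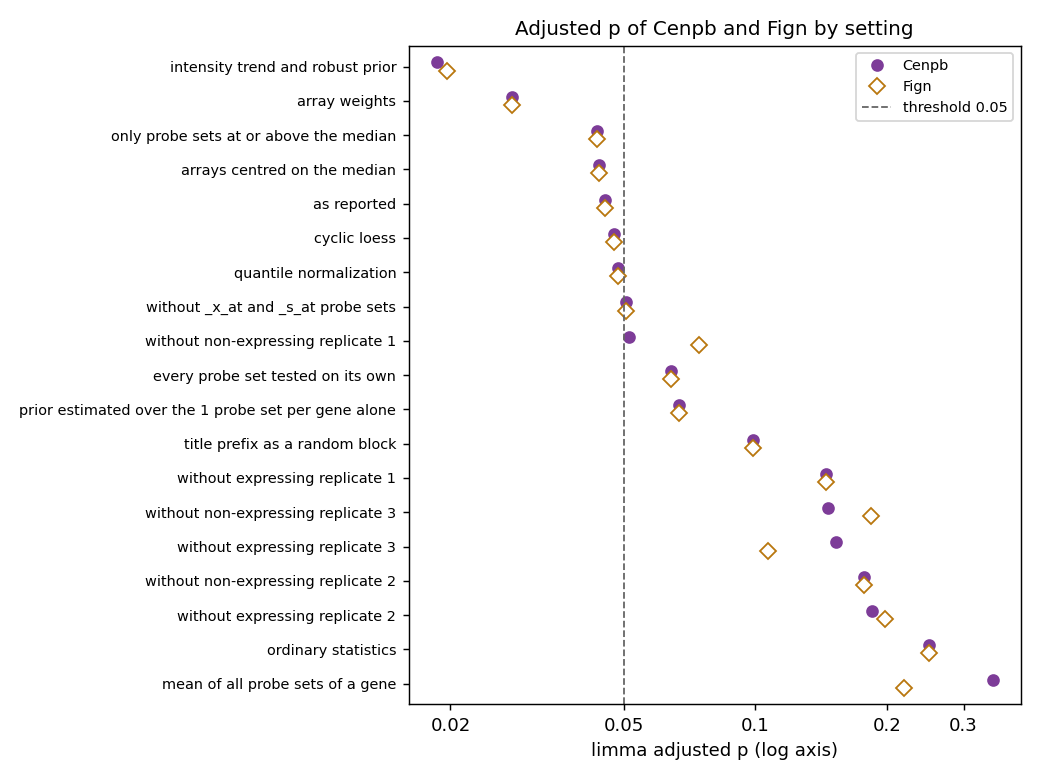
Adjusted p (x axis, log scale) of Cenpb (filled circles) and Fign (open diamonds) as reported and under 18 other settings (y axis). It is from limma, or from t statistics without the variance prior of limma in the setting with ordinary statistics. The dashed line is the threshold of 0.05. Both genes pass in 6 of the 18 other settings and miss it in 12, with an adjusted p of at most 0.350 for Cenpb and 0.250 for Fign.

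Other spindle and cytokinesis genes did not pass. Prc1, which bundles the microtubules between separating chromosomes, differed by 0.10 (95% interval -0.22 to 0.42). Its other probe set, dim, was at 4.01, 4.05 and 4.15 against 4.24, 4.44 and 4.18, lower without overlap (difference -0.21, adjusted p 0.409 over all probe sets). Kif23, a motor of the midbody, differed by -0.17 (95% interval -0.43 to 0.09). Kif11, Kif20a and Anln, which push spindle poles apart, carry cargo to the midzone and scaffold the contractile ring, were dim, with differences of 0.11, -0.27 and 0.04. Kif20a was at 4.28, 4.21 and 4.01 against 4.06, 4.58 and 4.67, and the groups overlapped.

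The 2 common markers of dividing cells did not pass, and the groups overlapped in both. Mki67, whose Ki-67 protein coats mitotic chromosomes, was at 6.10, 6.01 and 6.10 in the expressing and 6.25, 6.03 and 6.08 in the non-expressing arrays. The groups overlapped, with a difference of -0.05 (SE 0.09, 95% interval -0.25 to 0.14, adjusted p 0.848). Top2a, the topoisomerase that untangles sister chromatids, was at 5.90, 6.08 and 6.02 against 6.48, 6.12 and 5.88 (difference -0.16, 95% interval -0.49 to 0.17, adjusted p 0.704). Its other 2 probe sets, both dim, differed by 0.05 and -0.0073 with overlap. Both genes lay just above the median of all probe sets. Cenpf, often used beside them as a marker of late cycle phases, thus had a difference of 0.91 in arrays where Mki67 and Top2a had -0.05 and -0.16. Whether these differences differ from each other was not tested.

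Replication genes differed by small amounts, apart from Mcm6. Mcm2 to Mcm7 encode the 6 subunits of one ring, the helicase that opens DNA at the fork. Mcm6 was at 7.34, 7.04 and 6.94 in the expressing and 6.51, 6.08 and 6.89 in the non-expressing arrays. The groups were apart by a narrow margin, since non-expressing replicate 3 lay just under expressing replicate 3. The difference was 0.61 (SE 0.19, 95% interval 0.17 to 1.05, adjusted p 0.340). Probe set 1438852_x_at of Mcm6 was at 5.64, 5.45 and 4.77 against 4.45, 4.16 and 4.52, without overlap (difference 0.91, adjusted p 0.185 over all probe sets). The remaining one, also dim, differed by -0.16.

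The other ring subunits differed by 0.05 for Mcm2, 0.08 for Mcm3, 0.13 for Mcm4, 0.22 for Mcm5 and 0.01 for Mcm7, and none passed. For Mcm3 and Mcm5 the sign turned when _x_at and _s_at probe sets were left out. Pcna, the clamp that holds polymerases on DNA, was at 10.63, 10.55 and 10.69 against 10.42, 10.44 and 10.55. Its groups did not overlap, by less than the last printed digit, and it did not pass (difference 0.15, 95% interval -0.03 to 0.34, adjusted p 0.497). Rrm1 and Rrm2, the 2 subunits of the reductase that makes deoxynucleotides, differed by -0.02 and -0.04. The 95% interval was -0.19 to 0.15 for Rrm1 and -0.29 to 0.21 for Rrm2.

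D cyclins, which answer to growth signals and are not tied to S phase or mitosis, were well above the median. Ccnd2 was at 10.05, 10.32 and 10.16 against 10.02, 10.22 and 10.18, with overlap and a difference of 0.04 (95% interval -0.19 to 0.26). Of its 7 probe sets, 2 others had higher values in the expressing group without overlap, by 0.18 and 0.27, and neither passed. Probe sets 1416123_at and 1448229_s_at ran the other way with overlap, by -0.19 and -0.03. Ccnd1 differed by 0.12 (95% interval -0.07 to 0.31) and Ccnd3 by -0.0039 (95% interval -0.24 to 0.23). The cyclins of later phases were Ccne1 and Ccne2 (entry into S phase), Ccna2 (S phase and G2) and Ccnb2 (mitosis), with differences of -0.12, -0.27, 0.06 and 0.06. A second Ccnd3 probe set, 1444323_at, was at 6.35, 6.33 and 6.40 against 6.47, 6.54 and 6.48, without overlap (difference -0.14, adjusted p 0.485 over all probe sets). By the probe set that stood for each gene, none of the 7 cyclins measured passed or had groups apart.

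Of the cyclin-dependent kinases, Cdk6 had its groups apart. It was at 8.03, 7.93 and 7.92 in the expressing and 7.74, 7.77 and 7.73 in the non-expressing arrays (difference 0.21, SE 0.07, 95% interval 0.04 to 0.38, adjusted p 0.361). Its second probe set, at 7.69, 7.46 and 7.69 against 7.43, 7.27 and 7.10, differed by 0.34 without overlap, and the remaining, dim one by 0.24. Cdk4, the partner of the same D cyclins, differed by 0.11 (95% interval -0.07 to 0.29), with 3 probe sets between 0.08 and 0.13. Cdk2 differed by 0.15 (95% interval -0.12 to 0.43). Cdk1, the kinase of mitosis, was at 6.03, 6.0 and 6.10 against 6.10, 6.22 and 5.88, with a difference of -0.02 (95% interval -0.25 to 0.20). No kinase passed.

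Inhibitors of these kinases were also well above the median. Cdkn1c (p57, an imprinted gene active in the developing heart) was at 8.16, 8.19 and 7.99 in the expressing and 8.40, 8.51 and 8.42 in the non-expressing arrays. Its groups did not overlap, and its single probe set did not pass (difference -0.33, SE 0.09, 95% interval -0.52 to -0.13, adjusted p 0.260). Cdkn1a (p21, the inhibitor induced by p53) varied most of all members within a group. It was at 8.20, 7.84 and 9.33 in the expressing and 8.16, 8.54 and 8.43 in the non-expressing arrays, so that the value of expressing replicate 3 stood above all others. The second probe set showed the same array high, at 7.52, 7.43 and 8.40 against 7.52, 7.95 and 7.81. The Cdkn1a difference was 0.07 (95% interval -0.67 to 0.82) and -0.36 without expressing replicate 3, so its direction rests on that array.

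Cdkn1b (p27) differed by -0.02 (95% interval -0.34 to 0.29) and Cdkn2c (p18) by 0.02 (95% interval -0.25 to 0.28). A second, dim Cdkn1b probe set was at 4.49, 4.37 and 4.74 against 4.95, 4.89 and 5.09, without overlap (difference -0.44, adjusted p 0.210 over all probe sets). E2f1, which switches on replication genes, was at 6.35, 6.34 and 6.31 against 6.42, 6.46 and 6.50. These groups were apart, but the difference was -0.13 (95% interval -0.29 to 0.04, adjusted p 0.530). Rb1, which holds E2F factors inactive, differed by -0.03 (95% interval -0.32 to 0.27), and a dim probe set of it by 0.15 without overlap.

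Mitotic kinases and checkpoint genes were mostly dim. Plk1, which acts in spindle assembly, lay just above the median at 6.40, 6.12 and 6.28 against 6.21, 6.26 and 6.36, with a difference of -0.01 (95% interval -0.23 to 0.20). Aurka, Bub1, Bub1b and Birc5, a spindle pole kinase, a pair of checkpoint kinases and the survivin subunit of the Aurora B complex, differed by -0.03, -0.07, 0.08 and 0.13 with overlap. The other 2 Bub1b probe sets, dim as well, ran the other way without overlap: 1447362_at was at 4.66, 4.61 and 4.69 against 4.87, 4.95 and 4.88 (difference -0.25), and 1447363_s_at differed by -0.26 (adjusted p 0.274 and 0.332 over all probe sets). Aurkb, the Aurora B kinase itself, had 2 dim probe sets that ran opposite ways, both without overlap. One was at 3.76, 3.83 and 4.05 against 3.54, 3.61 and 3.56 (difference 0.31, adjusted p 0.333), and the other at 3.10, 3.05 and 3.02 against 3.25, 3.27 and 3.35 (difference -0.23, adjusted p 0.295 over all probe sets). No direction can be given for Bub1b or Aurkb from these values.

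Of the 44 genes, 34 had more than 1 probe set, and the 60 further probe sets gave no call, against 0.0133% of all 45037 probe sets (0.00222% higher and 0.0111% lower). At an unadjusted p under 0.05 in limma, 5 of the 60 were higher and 7 lower, against 5.86% and 6.37% of all probe sets. Groups were apart in 7 higher and 7 lower ones, against 8.27% and 10.3%. Of these 60, 39 lay below the median of all probe sets.

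Further genes of the cell cycle, outside the 45, gave no call either. The 10 lists of such genes held 198 measured genes besides the members, with a median difference of -0.02, 89 of them positive (44.9%, against 44% of all genes) and 109 negative. At an unadjusted p under 0.05, 8 were higher and 13 lower (limma), and the groups did not overlap in 10 higher and 17 lower genes. The shares over all genes are those given above. For 190 of the 198 the 95% interval lay within a 1.5-fold change.

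Of 32 measured genes of the centromere and kinetochore, 3 were higher and 2 lower at an unadjusted p under 0.05, against 4.85% and 6.56% of all genes. Those with the lowest p were Mis12 of the outer kinetochore platform (difference 0.24, adjusted p 0.337) and Cenph of the inner kinetochore (-0.28, adjusted p 0.340). Of 6 relatives of Cenpb that derive from pogo transposases, 1 was positive and 5 negative, against 44% positive over all genes, with a median of -0.13. Tigd5 and Jrk, with the lowest p, differed by -0.19 and -0.18. Of 7 relatives and partners of fidgetin among the microtubule-severing ATPases, none passed: Fignl1 differed by 0.24 (adjusted p 0.430) and Spast (spastin) by -0.17 (adjusted p 0.609).

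Checkpoint and anaphase-promoting complex genes numbered 27, with 1 higher and 4 lower at an unadjusted p under 0.05, against the same 4.85% and 6.56%. The lowest p were those of Ube2c (-0.34, adjusted p 0.309) and Anapc11 (-0.26, adjusted p 0.333), which both help tag mitotic proteins for degradation. Among 20 spindle motor and cytokinesis genes, Hmmr (a spindle assembly factor) differed by -0.42 (adjusted p 0.309) and the chromokinesin gene Kif4 by 0.26 (adjusted p 0.352). In the cohesin and condensin list of 17, which holds chromatids together and compacts them, Ncapd2 differed by 0.37 (adjusted p 0.228) and Rad21 by 0.21 (adjusted p 0.490).

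Of 36 replication origin and fork genes none had an unadjusted p under 0.05, against 11.4% of all genes, with Pole, a polymerase subunit, at 0.23 (adjusted p 0.465) and Orc6, of the origin recognition complex, at 0.16 (adjusted p 0.498). The same held for the 18 genes of the E2F, pocket protein and MuvB list, where E2f7, a repressor, differed by -0.22 and the E2F partner Tfdp2 by 0.22. Of 19 other regulators of the first gap phase, Cks2 (a small kinase subunit) differed by -0.32 (adjusted p 0.253) and Myc by -0.37 (adjusted p 0.357). Of 17 p53 targets and regulators, Mdm4, a p53 inhibitor, differed by 0.34 (adjusted p 0.350) and the apoptosis gene Bbc3 by -0.24 (adjusted p 0.362).

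**Figure D5:**
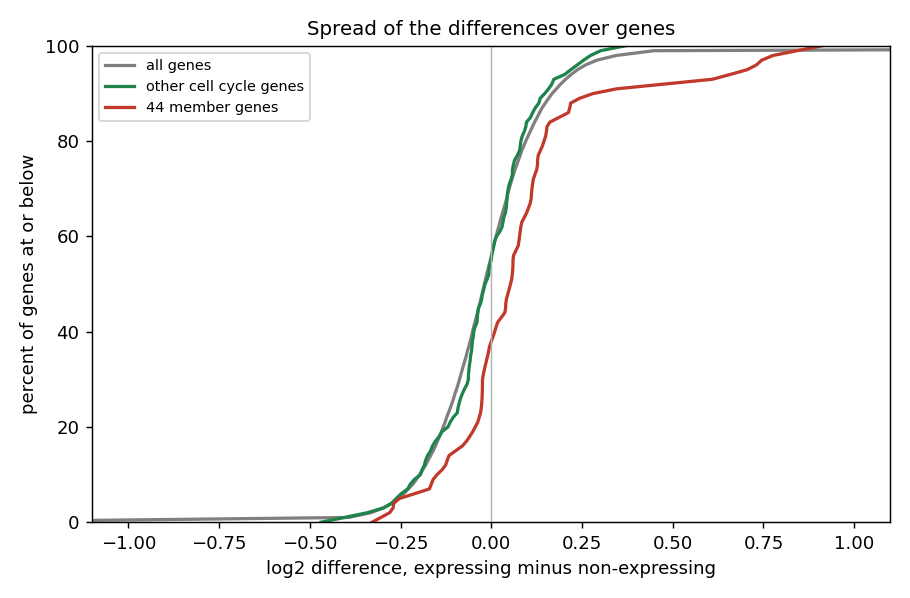
Percent of genes (y axis) at or below a log2 difference, expressing minus non-expressing (x axis), for the 44 member genes, 198 other cell cycle genes and all 18193 genes. The line of the other cell cycle genes lies close to that of all genes, with medians of -0.02 each, and the members' line runs to the right of both (median 0.05) and has a tail of Mcm6, Fign, Cenpb and Cenpf. The x axis stops at 1.1 on either side, so the largest differences over all genes are not shown.

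Several other measures moved with the groups beside Cenpb, Fign, Cenpf and Mcm6, and their part in these differences was not tested. Control probe sets of 18S ribosomal RNA lay at 8.07 to 8.50 in the expressing and 9.57 to 10.3 in the non-expressing arrays, without overlap. The 3′ probe set of beta-actin exceeded the 5′ one, a gap that reflects RNA integrity, by 1.20 to 1.28 and by 1.30 to 1.43, also without overlap. The same gap for Gapdh overlapped, at 0.101 to 0.222 and 0.163 to 0.299. Of 8 fibroblast markers all 8 had positive differences (median 0.21), against 44% of all genes, and 5 were higher without overlap, against 8.16% of all genes. All 8 lay above the median of all probe sets, where 48.8% of 11963 genes were positive and 1280 were higher without overlap. None of the 8 passed, with 4 at an unadjusted p under 0.05 (limma). Their summed level, on the log2 scale, was 14.56 to 14.70 against 14.32 to 14.46. Of 8 markers of atrial muscle 5 had positive differences, against 44% of all genes, and 3 passed, against 0.0660% of all genes. Their summed level was 11.80 to 13.34 against 10.82 to 11.46. Those that passed, Myl4, Myl7 and Sln, differed by 3.60, 3.45 and 3.89. The others did not move together. Nppa differed by 1.02 and Stard10 by 0.10, both with overlap, and Nr2f1, Nr2f2 and Bmp10 by -0.12, -0.09 and -0.03. Ventricular cardiomyocyte markers summed to 17.31 to 17.36 against 17.32 to 17.35, and none of the 10 passed. That sum is set by the brightest markers, such as Myl2 and Actc1. Their means were 14.69 and 14.68, near the highest value on the arrays, 14.77. Some of the 10, such as Actc1 and Myh6, are active in atrial muscle too, so the sum does not single out ventricular muscle. The sum also says little about dimmer markers such as Irx4, which differed by 0.07 with overlap. Whether the tissue was purely ventricular was not tested. Sums overlapped for endothelial (13.90 to 14.03 against 13.89 to 14.13), macrophage (12.56 to 12.79 against 12.25 to 12.84) and smooth muscle and pericyte markers (13.60 to 13.68 against 13.58 to 13.67). They also overlapped for red cell (8.81 to 9.18 against 9.00 to 9.35) and Schwann cell markers (10.39 to 10.46 against 10.31 to 10.41). These sums too are set by bright markers, such as Fabp4 for endothelium. Groups were apart in 2 of 8 endothelial markers, Pecam1 (0.20) and Emcn (0.29). They were also apart in 1 of 8 macrophage markers (Mrc1, 0.36) and 1 of 8 smooth muscle and pericyte markers (Kcnj8, -0.20). Over all genes the shares were 8.16% higher and 10.8% lower, and none of these markers passed. All 5 measured Schwann cell markers had positive differences, against 44% of all genes. Groups were apart in 2 of them, Mbp and Sox10, both higher, against 8.16% of all genes. Mbp differed by 0.88 (limma adjusted p 0.117) and each of the others by at most 0.05. Lymphocyte markers lay at 9.02 to 9.04 against 9.05 to 9.09, lower in the expressing group without overlap but by a narrow margin. Of the 7 measured, 2 had positive and 5 negative differences, against 44% positive over all genes. Groups were apart in 2, both lower, against 10.8% of all genes. None passed, and 3 lay below the median of all probe sets.

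The 6 arrays were alike, with correlations between 0.992 and 0.997 over all probe sets. Non-expressing replicate 1, whose title prefix no other sample shares, was the lowest array for 19 of the 44 members. Without it the median difference over the members was 0.02, against 0.05 with all arrays. The sample titles carry 3 prefixes, and none of them holds both groups, so a prefix effect and the PR-M groups cannot be told apart.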

How the data were processed

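Total RNA of 6 samples was measured on Affymetrix Mouse Genome 430 2.0 arrays. Expression is on the log2 scale, as deposited by the authors. RMA (robust multi-array average) and Partek 6.6 are named in the submitters' processing notes, without settings. RMA equalises arrays, so a difference is relative to the other genes.

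Of 45101 probe sets, 64 controls were left out of tests. The platform table gives 1 symbol to 34945 of the other 45037, several to 932 and none to 9160, and only those with 1 were named. Each of 18193 genes was represented by its brightest probe set on average. A limma model (version 3.58.1, R 4.3.3, two-sided, with statmod 1.5.0 for the random block) was fitted over all 45037 probe sets, with 4.48 prior and 4 residual degrees of freedom. P-values were adjusted by Benjamini-Hochberg over the 18193 genes, or over all probe sets where said, at a threshold of 0.05. The planned design did not say which rows set the prior. It was first estimated over the 18193 gene rows (3.83 prior degrees of freedom), and the fit over all probe sets was adopted after both outcomes, 0 and 2 members called, had been seen. The fit was also run on simulated data whose planted changes were larger than the difference of any member. That run does not show how often differences as small as those of the members are found.

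Every member was to be named, and from each further list the 2 genes with the lowest p. The members and lists were chosen with earlier results of these data known. Replicates were numbered in record order and pair nothing. The number of arrays limits the precision. Alternatives were other scalings, priors, probe set choices, a filter on dim probe sets, array weights, a block and leaving out each array. Promoter windows came from RefSeq (GRCm38.p6).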

Additional observations from a re-analysis of the deposited data

How the results depend on the processing

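With 3 arrays in each group the count of calls depended on the setting. Of 18193 genes 12 passed, and 4 passed with the prior estimated over the genes alone (the fit run first, set aside for the one over all probe sets after both outcomes were seen, so listed as chosen after seeing the data) or when the title prefix was a random block, 1 with the mean of all probe sets or with ordinary statistics, 3 without _x_at and _s_at probe sets, 6 when every probe set was tested on its own, 23 with an intensity trend and robust prior and 26 with array weights. With 1 array left out the count ran from 0 (without non-expressing replicate 2, limma, where 1540 genes had an unadjusted p under 0.05) to 18 (without non-expressing replicate 1). The members' count of 2 became 0 in the first 6 of these settings, where 6 or 7 members had an unadjusted p under 0.05. Those p-values are from limma, or from t statistics without its prior in the setting with ordinary statistics. The count was 0 to 1 in limma with an array left out (the 1 being Cenpf). It was 2 with the trend, array weights, the filter on dim probe sets and all 3 other scalings. The median difference of 0.05 ranged from 0.0094 to 0.07 over all settings that change it. Signs turned in 13 members outside the leave-one-out settings, none of them called and the largest being Mcm5 with a difference of 0.22: with the mean of all probe sets for Bub1b (-0.14), Aurka (0.0020), Cenpa (-0.11), Cenpe (-0.018), Prc1 (-0.057), Kif11 (-0.020) and Rb1 (0.060), without _x_at and _s_at probe sets for Mcm3 (-0.075), Mcm5 (-0.047) and Prc1 (-0.21), with quantile normalization for Mcm7 (-0.0021), with array weights for Cdkn1a (-0.064) and Cdkn2c (-0.045), and with the block for Ccnd3 (0.0036). With 1 array left out the sign turned in 20 members, none with a difference over 0.16: Anln from -0.0049 to 0.081, Aurka from -0.091 to 0.018, Bub1 from -0.16 to 0.034, Ccna2 from -0.0071 to 0.12, Ccnb2 from -0.026 to 0.16, Ccnd2 from -0.034 to 0.10, Ccnd3 from -0.10 to 0.059, Cdk1 from -0.12 to 0.051, Cdkn1a from -0.36 to 0.38, Cdkn1b from -0.19 to 0.060, Cdkn2c from -0.085 to 0.10, Cenpe from -0.13 to 0.19, Mcm7 from -0.048 to 0.055, Mki67 from -0.10 to 0.011, Plk1 from -0.076 to 0.063, Prc1 from -0.041 to 0.20, Rb1 from -0.15 to 0.075, Rrm1 from -0.045 to 0.0078, Rrm2 from -0.15 to 0.039 and Top2a from -0.30 to 0.00044. Cenpb, Fign, Cenpf, Mcm6 and Cdk6 stayed higher and Cdkn1c lower in all 18 settings. Members with small differences, such as Pcna (0.15) and Mcm2 (0.05), kept their sign as well, so a kept sign does not set these genes apart. No paired analysis was possible because the labels give no replicate numbers shared by the groups. Aurkb could not be fitted without _x_at and _s_at probe sets, nor the 11 dim members under the filter.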
